A study of Rattus norvegicus with 20 samples.

Results

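Visceral white fat of rats on 20% calorie restriction (CR) was compared with that of rats on 10% CR, at 1 week and at 1 month. The comparison holds 8 of the 20 arrays of the series and 4 of its 10 RNA pools, taken by the level of restriction and the duration in the sample titles: 4 chips of 2 pools at 20% CR and 4 chips of 2 pools at 10% CR. All animals were male Wistar rats, an outbred strain, bought at 5 weeks of age and entering the experiment at 6 weeks on the powdered AIN-93G diet. They were fasted for 16 h before the tissue was taken. Rats at 20% CR received 80% and rats at 10% CR 90% of a recorded daily intake, so both groups were restricted. Controls and the 5% and 30% CR pools enter only where they are named. Each pool held the RNA of 5 rats and its labelled RNA was divided over 2 Affymetrix rat chips. Duplicate chips thus repeat the assay and not the animals, each level and duration is 1 pool, and no spread between animals can be read from the data. The p-values rest on how far pools depart from a sum of a level effect and a duration effect. This spread takes in the animals of a pool, its handling and any effect of level that differs between durations. It is drawn from all 10 pools of the series, controls and 5% and 30% CR among them.

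White fat stores triglyceride made from fatty acids and glycerol phosphate and releases it in fasting, when insulin is low and catecholamines and glucocorticoids are high. It is also an endocrine tissue that secretes leptin, adipsin and other adipokines, and besides adipocytes it holds endothelial cells, smooth muscle of vessel walls, fibroblasts, mesothelium, macrophages and lymphocytes. When less food is eaten, genes of fat breakdown, mitochondrial oxidation, lipid synthesis and the circadian clock are the ones most often followed in this tissue.

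The values were MAS5 signals, a linear intensity per probe set, used on the log2 scale. Chips of one number at one duration had been brought to the same average before deposit, and the first chips at 1 week lay on a lower scale (trimmed mean 77.2) than the second chips (110.9), while both sets at 1 month lay near 97.5. Signals are therefore set against each other within a duration and a chip number. Duplicate chips of the 4 pools correlated at 0.937 to 0.950 over all probe sets. The adipocyte gene Fabp4, a fatty acid carrier, gave 4964 at 1 week and 5738 at 1 month at 20% CR, against 4851 and 5760 at 10% CR (means of the 2 chips on the log2 scale, given as signal). The 19 markers of exocrine pancreas on the array, which the control pool at 1 week carried at a mean log2 signal of 11.69, lay at 2.46 and 2.56 in the 20% CR pools and at 2.61 and 2.63 in the 10% CR pools. Lymphocyte markers (14 genes) lay at 5.47 at 1 week and 3.22 at 1 month in the 20% CR pools, against 5.13 and 3.29 in the 10% CR pools, and at 6.90 and 6.92 in the controls. In bulk tissue, fewer cells of a type and less RNA per cell cannot be told apart.

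Few probe sets separated 20% from 10% CR, and many more separated either level from the controls. No probe set of 9520 tested passed an adjusted p of 0.05 (limma on pool means, 0% called in either direction, every adjusted p at or above 0.9997). At an unadjusted p under 0.05 there were 192 probe sets (2.02%, where 5% would come from chance alone), 92 higher (0.966%) and 100 lower (1.05%) at 20% CR. In the same fit 20% CR against control gave 603 probe sets higher and 459 lower past the adjusted threshold, and 10% CR against control 483 and 386. The control pool at 1 week carried the pancreas transcripts and both control pools the higher lymphocyte signals given above, and their part in those counts was not tested. The log2 signals of the 20% and 10% CR pools correlated at 0.982 across the tested probe sets at 1 week and at 0.985 at 1 month. These values rest on means of 2 chips, so they cannot be set beside those of duplicate chips, which were single chips over all probe sets. The median size of the difference was 0.156 at 1 week and 0.146 at 1 month.

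A missed threshold does not show equality, so the precision matters. The median SE of a difference was 0.167 (log2), with 0.112 and 0.285 at the 10th and 90th percentiles, and a 95% interval was 2.26 SE to each side. For 8944 probe sets (93.9%) the interval lay inside a change of 2-fold in either direction. A difference of 2-fold or more was measured for 9 probe sets, all dim, with mean signals between 18.4 and 35.6, where the lowest mean tested was 22.8 over all 20 chips. The most even of them over the 4 chip pairs was Art1, an ADP-ribosyltransferase, singled out after its values were seen. Its signal was 23.9 and 53.4 at 1 week and 43.7 and 34.8 at 1 month at 20% CR, against 12.7 and 25.5 at 1 week and 18.6 and 19.7 at 1 month at 10% CR, a difference of 1.01 ± 0.26.

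Of all tested probe sets, 1184 (12.4%) had one sign in the 4 chip pairs (20% minus 10% within duration and chip number): 546 higher (5.74%) and 638 lower (6.7%) at 20% CR. Independent random signs would agree in nearly the same share of probe sets. One sign in 4 pairs thus marks no gene by itself. Of the 1184, 26 were at least 1.5-fold higher (0.273%) and 41 at least 1.5-fold lower (0.431%) as the mean of the 2 durations, 67 in all (0.704%). The genes described next are the 14 of largest mean difference in each direction among those with one sign in all 4 chip pairs, an unadjusted limma p under 0.05 and a mean signal of at least 50. None passed the adjusted test, so their values are given as measured differences (log2, 20% minus 10%, ± SE of the limma fit). Signals are given in the order of the first and second chip at 1 week and the first and second chip at 1 month.

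Among the 14 genes higher at 20% CR, the largest mean difference was that of Rgs2, a regulator of G protein signalling that shortens signals of Gq-coupled receptors. Its signal was 592.7, 870.7, 714.2 and 780 at 20% CR, against 263.1, 383.1, 588.4 and 653.6 at 10% CR. The gap was wider at 1 week (1.18) than at 1 month (0.27), for a mean of 0.72 ± 0.18. A further probe set of the gene gave a mean of 0.78 with one sign in all 4 chip pairs. Aacs, the cytosolic enzyme that activates the ketone body acetoacetate for lipid synthesis, had signals of 217.2, 320.4, 227.2 and 254.1 at 20% CR, against 107.8, 137.7, 213.5 and 187 at 10% CR. Its difference was 0.69 ± 0.20, and again most of it lay at 1 week (1.11, against 0.27 at 1 month).

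Fmo1, Nupr1 and Gsr, which act in detoxification and stress responses, were also among the 14. Fmo1, a flavin monooxygenase that oxidises nitrogen- and sulphur-containing compounds, gave 159.6, 183.3, 177.4 and 174.6 at 20% CR, against 91.9, 147.3, 124.1 and 123.5 at 10% CR, a difference of 0.53 ± 0.20 with close values at the 2 durations (0.56 and 0.51). Nupr1, a stress-induced nuclear protein, gave 164.2, 217.1, 267.1 and 239.8 at 20% CR, against 102.5, 137.6, 165.1 and 192.2 at 10% CR, a difference of 0.59 ± 0.24. At both durations the 20% CR chip lay above its 10% CR partner for these genes. Gsr, which reduces oxidised glutathione, had 80.2, 100.1, 100.7 and 105.7 at 20% CR, against 41.2, 70.3, 82.6 and 86.3 at 10% CR (0.51 ± 0.21). The smallest SE among the 14 belonged to Net1, an activator of the GTPase RhoA, at 469.5, 669, 718.3 and 684.3 at 20% CR, against 307.8, 546.3, 454.3 and 496.8 at 10% CR, a difference of 0.51 ± 0.12. Atosa differed by 0.47 ± 0.14, at 69.8, 71.8, 107.2 and 77 at 20% CR, against 39.7, 63.5, 69.5 and 63.7 at 10% CR.

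The remaining 7 genes of this group are given next. Sorbs2, an actin-linked adaptor, gave 70.9, 98.4, 94.1 and 105.7 at 20% CR, against 50.5, 94.7, 35.4 and 59.7 at 10% CR (0.69 ± 0.27), with most of the gap at 1 month (1.12, against 0.27 at 1 week). Hrh3, the histamine H3 receptor, gave 192.3, 246, 128.5 and 128 at 20% CR, against 102.2, 128.9, 104.9 and 95.9 at 10% CR (0.64 ± 0.21). It had most of its gap at 1 week (0.92, against 0.35 at 1 month), as did Ifrd1 (0.94 and 0.07). Ifrd1, a transcriptional coregulator, gave 307.7, 421.9, 283.1 and 269.8 at 20% CR, against 131.6, 266.5, 278.1 and 247.6 at 10% CR (0.51 ± 0.20). The kinase Csnk1g3 (0.52 ± 0.16), the peptidase Tpp2 (0.52 ± 0.16), the membrane protein Tmtc1 (0.50 ± 0.17) and Aebp1, a protein of the adipose stroma (0.49 ± 0.20), had close to the same difference. Other tested probe sets gave 0.20 for Hrh3, higher in 3 of 4 chip pairs, and 0.05 for Csnk1g3, higher in 1 of 4.

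**Figure D1:**
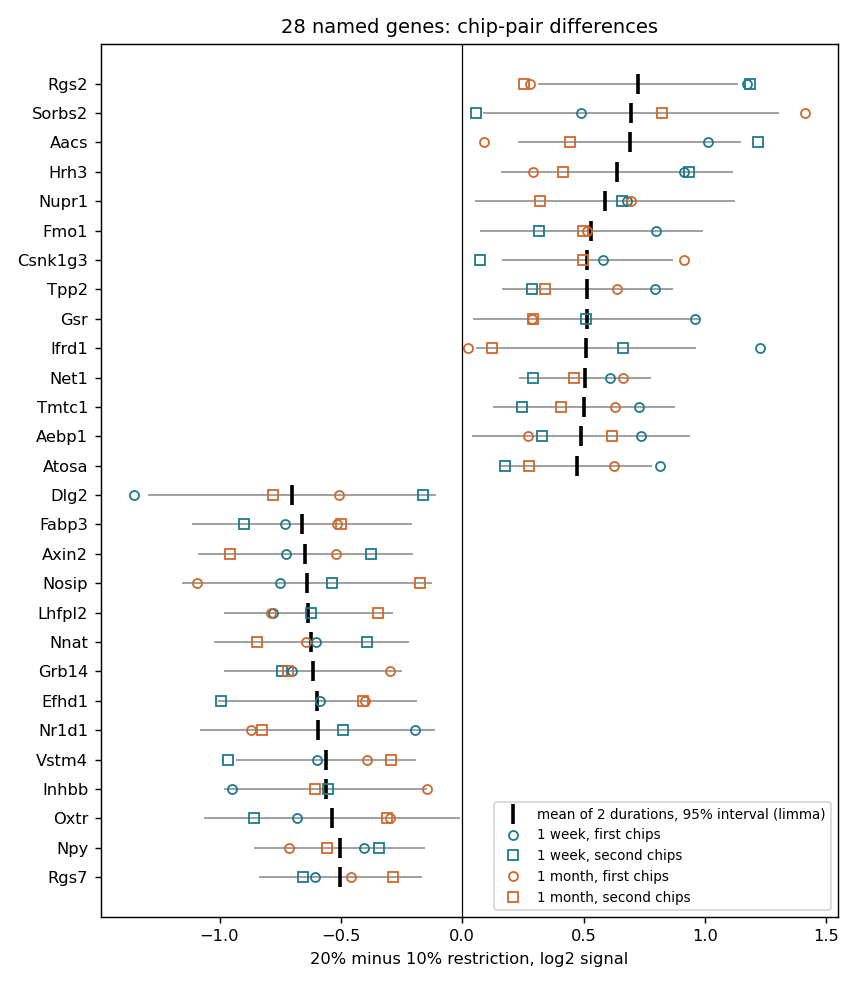
Difference in log2 MAS5 signal, 20% minus 10% CR, for the 14 genes higher and the 14 lower at 20% CR, with 1 symbol for each of the 4 chip pairs, the mean of the 2 durations as a bar and its 95% interval (limma). All 4 symbols of a gene lie on one side of 0, which the choice of genes required, and among the higher genes Rgs2, Ifrd1, Sorbs2 and Aacs show wide gaps between 1 week and 1 month.

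Among the 14 genes lower at 20% CR were an adipocyte gene, a brake on the insulin receptor and a clock repressor. Nnat, the paternally expressed proteolipid neuronatin, was by far the brightest of the 14, at 1208.9, 1787.8, 2259.6 and 1748 at 20% CR, against 1837.6, 2348.3, 3528.2 and 3140 at 10% CR. The difference was -0.62 ± 0.18, and within each duration and chip number the 20% CR signal was the lower one. Grb14, an adaptor that inhibits the insulin receptor, had signals of 57.7, 85.5, 146.8 and 99.7 at 20% CR, against 93.8, 143.1, 180.5 and 164 at 10% CR, a difference of -0.62 ± 0.16. Nr1d1 (REV-ERBα), the haem-binding repressor of the clock, gave 109.5, 121.8, 54.1 and 38.4 at 20% CR, against 125.3, 171.2, 98.8 and 68.1 at 10% CR, a difference of -0.60 ± 0.21 that was larger at 1 month (0.85 lower) than at 1 week (0.34 lower).

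Receptors and secreted factors made up another share of the genes lower at 20% CR. Oxtr, the oxytocin receptor, had 70.1, 96.1, 120.6 and 110.3 at 20% CR, against 112.4, 174.1, 148.1 and 136.8 at 10% CR (-0.54 ± 0.23). Inhbb, the βB subunit of activin and inhibin, differed by -0.56 ± 0.19, and the neuropeptide Npy by -0.50 ± 0.16, at 47.4, 52, 66.4 and 54.3 at 20% CR, against 62.7, 66, 108.9 and 79.9 at 10% CR. Fabp3, the fatty acid carrier typical of heart and muscle, had 63.3, 69, 88.7 and 91 at 20% CR, against 104.9, 128.5, 127 and 128.5 at 10% CR (-0.66 ± 0.20). Axin2, a target and inhibitor of Wnt signalling, differed by -0.65 ± 0.20 at 39.3, 88.4, 48.3 and 30.9 at 20% CR, against 65.1, 114.8, 69.3 and 60 at 10% CR. Lhfpl2, a membrane protein, differed by -0.63 ± 0.15, at 40.9, 57.9, 41.8 and 58.1 at 20% CR, against 70.2, 89.2, 72.2 and 73.8 at 10% CR. Dlg2, a synaptic scaffold, had the largest mean difference of the group (-0.70 ± 0.26), at 19.8, 51.3, 98.2 and 99.8 at 20% CR, against 50.5, 57.4, 139.7 and 171.4 at 10% CR. Rgs7, of the same family as Rgs2, gave 134.3, 179.6, 237.6 and 262.2 at 20% CR, against 204.7, 283.3, 326.1 and 319.5 at 10% CR (-0.50 ± 0.15). The others were Nosip, named for its binding of nitric oxide synthase (-0.64 ± 0.23), Efhd1, a calcium-binding protein of mitochondria (-0.60 ± 0.18), and Vstm4 (-0.56 ± 0.16).

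The pools at 30% and 5% CR do not enter the 20% minus 10% difference, so they show the same genes in other animals; this comparison was chosen after the values above had been seen. Of the 14 genes higher at 20% CR, 12 lay higher at 30% than at 5% CR and 7 passed the adjusted test in that direction, where 27 of all tested probe sets did (0.284%). Of the 14 lower genes, 12 lay lower at 30% than at 5% CR and 2 passed, where 6 of all did (0.063%). Over all tested probe sets 45.1% lay higher at 30% CR. The 7 genes higher, with their limma adjusted p, were Atosa (1.67 ± 0.14, adjusted p = 0.00577), Fmo1 (1.92 ± 0.20, 0.0178), Rgs2 (1.44 ± 0.18, 0.0324), Net1 (0.95 ± 0.12, 0.0324), Nupr1 (1.62 ± 0.24, 0.0375), Ifrd1 (1.34 ± 0.20, 0.0398) and Aacs (1.30 ± 0.20, 0.0455). The 2 genes lower were Oxtr (-1.80 ± 0.23, 0.0324) and Vstm4 (-1.01 ± 0.16, 0.0483, limma adjusted p).

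Both tests take their spread from the same 10 pools, and the 28 genes were picked partly for a small spread. The calls are thus not independent of the choice. The 30% and 5% CR pools did not enter the 20% minus 10% difference itself. How alike their 2 durations were did enter its SE, and so the choice of genes. Counts at a single duration are therefore not independent of that choice either. The broader sets were less even. Of the 26 probe sets at least 1.5-fold higher at 20% CR, 13 lay higher at 30% than at 5% CR. Of the 41 at least 1.5-fold lower, 33 lay lower. The 30% CR pool at 1 week also carried pancreas transcripts (mean log2 signal 5.95, against 2.85 in the 5% CR pool). Lymphocyte markers lay at 3.15 and 5.99 in the 30% CR pools at 1 week and 1 month, against 6.01 and 6.86 in the 5% CR pools. Their part in these differences was not tested. At 1 month alone, 10 of the 14 higher genes lay higher and 11 of the 14 lower genes lay lower at 30% than at 5% CR. Of all tested probe sets 47.7% lay higher at 30% CR at 1 month. At 1 week alone these counts were 12 and 13, where 44.7% of all lay higher.

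Over all 5 levels the named genes did not share one shape. Atosa was higher at each further level at both durations, with log2 signals of 4.83, 5.26, 5.65, 6.15 and 6.97 at 0, 5, 10, 20 and 30% CR at 1 week and 5.12, 5.60, 6.06, 6.51 and 7.23 at 1 month. Oxtr was lower at each further level, with 7.97, 7.55, 7.13, 6.36 and 6.09 at 1 week and 7.90, 7.47, 7.15, 6.85 and 5.34 at 1 month. Grb14 had its highest level at 10% CR, with 5.88, 6.44, 6.86, 6.13 and 5.88 at 1 week and 6.48, 6.90, 7.43, 6.92 and 6.02 at 1 month. Nnat was likewise highest at 10% CR at both durations, and Nr1d1 at 10% CR at 1 month but at 5% CR at 1 week. In all, 6 of the 14 lower genes had their highest level at 10% CR at both durations (Grb14, Nnat, Dlg2, Fabp3, Lhfpl2 and Inhbb), and 3 of the 14 higher genes their lowest (Csnk1g3, Tpp2 and Tmtc1). For these 9 the 20% minus 10% difference is taken from an extreme of the 5 levels, and the 10% CR pools helped to choose them.

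**Figure D2:**
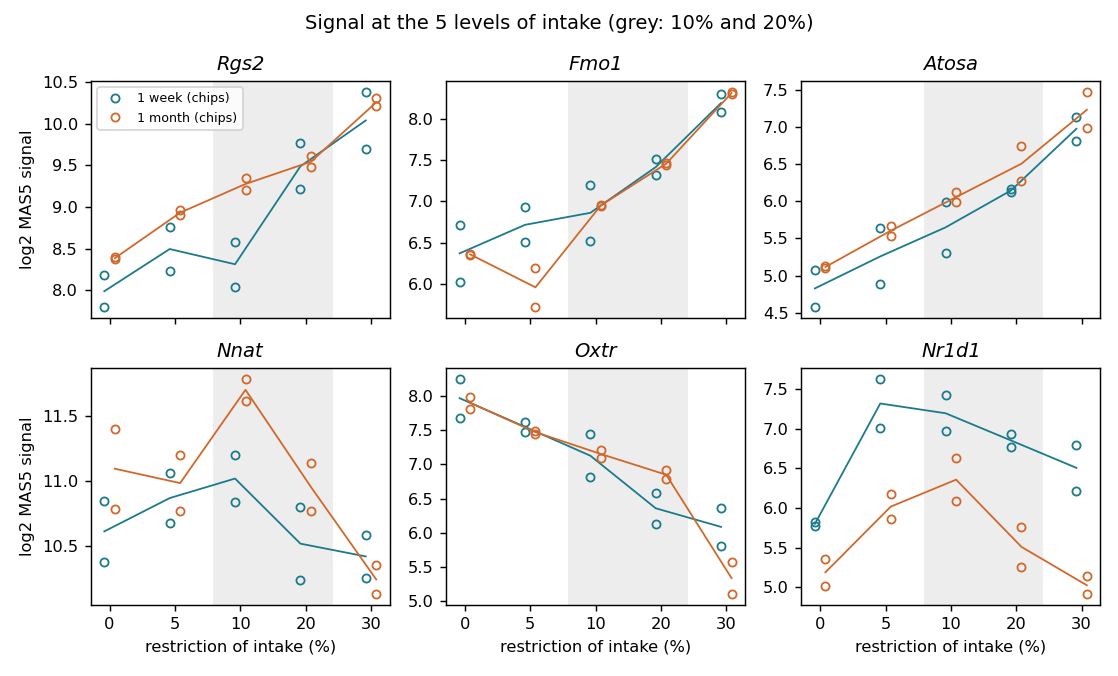
Log2 MAS5 signal of 6 of the named genes at 0, 5, 10, 20 and 30% restriction, with 1 open circle per chip, lines through the mean of the 2 chips of a pool, and both durations side by side; the 10% and 20% levels are shaded. Atosa climbs over the 5 levels at 1 week from 4.83 to 6.97 with no step back, while Nnat and Nr1d1 have their highest level in the 5% or 10% CR pools.

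Promoter windows of 250 bases before the start, from RefSeq (rat build GRCr8), were found for 23 of the 28 genes and searched on both strands for 5 motifs, none of which is contained in another. These were CACGTG (the E-box of clock and MYC-type factors), AGAACA (the core of the glucocorticoid receptor motif), CCAAT (the motif of NF-Y), TATAAA (the TATA box) and GGGCGG (the GC box). CACGTG was in the windows of 3 of 12 genes higher (Nupr1, Net1 and Atosa) and 2 of 11 genes lower at 20% CR (Nr1d1 and Rgs7), against 6.18% of all 27457 genes with a window, and 5.59% of their 33469 windows. A gene with several windows was counted where any of them matched. The shares over all genes include genes not tested on the array, while the 28 were drawn from tested genes only. The GC box was found for 8 of 12 and 5 of 11 genes (33.5% of all genes) and the NF-Y motif for 6 of 12 and 4 of 11 (36.1%). The glucocorticoid receptor core was found for 1 of 12 and 1 of 11 (18.5%) and the TATA box for 0 of 12 and 1 of 11 (14.1%). A match describes the letters only. The windows of Rgs2, the gene of largest difference, and of the 5 genes with CACGTG are shown 5′ to 3′ in the direction of the gene, with matches to any of the 5 motifs in capitals. For Nr1d1 the window is the one of its 2 that holds the E-box.
Rgs2, chr13:58352667-58352916, minus strand: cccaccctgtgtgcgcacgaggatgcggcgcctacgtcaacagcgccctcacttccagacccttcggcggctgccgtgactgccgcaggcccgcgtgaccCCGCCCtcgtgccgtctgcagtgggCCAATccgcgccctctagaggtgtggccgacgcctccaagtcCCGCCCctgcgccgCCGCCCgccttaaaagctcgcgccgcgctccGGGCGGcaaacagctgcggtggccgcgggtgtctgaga
Nupr1, chr1:190645902-190646151, minus strand: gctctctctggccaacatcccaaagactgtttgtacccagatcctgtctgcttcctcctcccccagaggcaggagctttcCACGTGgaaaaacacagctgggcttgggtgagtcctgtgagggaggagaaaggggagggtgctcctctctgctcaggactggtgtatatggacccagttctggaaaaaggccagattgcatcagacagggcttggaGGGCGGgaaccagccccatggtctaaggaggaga
Net1, chr17:71269983-71270232, plus strand: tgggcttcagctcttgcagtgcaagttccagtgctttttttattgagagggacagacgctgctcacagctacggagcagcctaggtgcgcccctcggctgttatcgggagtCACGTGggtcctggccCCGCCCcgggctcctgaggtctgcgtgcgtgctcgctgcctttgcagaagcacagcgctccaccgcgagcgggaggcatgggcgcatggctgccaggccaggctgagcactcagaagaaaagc
Atosa, chr8:84575318-84575567, plus strand: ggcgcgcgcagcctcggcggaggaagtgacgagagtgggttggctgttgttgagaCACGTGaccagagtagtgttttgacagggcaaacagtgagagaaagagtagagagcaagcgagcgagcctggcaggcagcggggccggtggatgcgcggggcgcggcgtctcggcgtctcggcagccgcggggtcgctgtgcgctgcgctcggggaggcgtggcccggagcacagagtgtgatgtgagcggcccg
Nr1d1, chr10:84229455-84229704, minus strand: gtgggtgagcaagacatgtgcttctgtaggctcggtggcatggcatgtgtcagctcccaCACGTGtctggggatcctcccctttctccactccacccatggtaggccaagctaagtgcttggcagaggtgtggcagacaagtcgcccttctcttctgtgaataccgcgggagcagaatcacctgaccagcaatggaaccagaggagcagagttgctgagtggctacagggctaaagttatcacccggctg
Rgs7, chr13:89941051-89941300, minus strand: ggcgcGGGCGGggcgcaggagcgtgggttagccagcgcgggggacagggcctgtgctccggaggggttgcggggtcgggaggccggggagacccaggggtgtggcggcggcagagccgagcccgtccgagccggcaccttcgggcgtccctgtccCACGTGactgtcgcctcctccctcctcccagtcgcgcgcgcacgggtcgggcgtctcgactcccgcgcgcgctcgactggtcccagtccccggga

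Gene lists are described by how many of their tested genes lay on each side, beside the same over all 7113 tested genes, of which 3604 lay higher and 3509 lower at 20% CR with a median difference of 0.00. Of all tested genes 5.86% had one sign in 4 chip pairs upward and 6.62% downward. No member of any list passed the adjusted test. The signs of the list medians given here stayed the same with each chip centred on its median and after quantile normalization, as far as they were 0.05 or more in size. Among lists with 10 or more tested genes, fatty acid synthesis had the most even direction: 16 of 17 tested genes lay higher at 20% CR, with a median of 0.10, a range from -0.06 to 0.65 and 5 genes of one sign in all 4 chip pairs. With any 1 of the 4 pools left out the median lay between 0.09 and 0.13. The 5 were Acss2, which makes cytosolic acetyl-CoA from acetate, Me1, a source of NADPH, the desaturase Fads2, the citrate carrier Slc25a1 and acetyl-CoA carboxylase Acaca. Of these, Me1, Slc25a1 and Acaca were picked out after their values were seen. Acss2 gave 990.3, 1364.4, 1185 and 1257.7 at 20% CR, against 826.8, 1226.3, 924.1 and 986.9 at 10% CR (0.28 ± 0.12). Me1 gave 2536.6, 3429.3, 2894.6 and 2623.8 at 20% CR, against 2294.1, 3092.4, 2129.1 and 1993.5 at 10% CR (0.28 ± 0.14), while Fads2, at signals of 8 to 55.4, differed by 0.65 ± 0.31 and Acaca by 0.11 ± 0.10, a difference whose sign turned when the second chip of 20% CR at 1 week was left out. The fatty acid synthase gene Fasn differed by 0.09.

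In xenobiotic metabolism and among antioxidant enzymes more genes lay higher than lower at 20% CR. Of 28 tested xenobiotic genes 19 lay higher, with a median of 0.08, 6 of one sign upward and 1 downward. Beside Fmo1 they included Gstz1, a glutathione transferase that also acts in tyrosine breakdown, at 286.8, 387.9, 457.2 and 410.3 at 20% CR, against 258.4, 335.5, 320.7 and 283.9 at 10% CR (0.35 ± 0.14). Cbr1, a carbonyl reductase, differed by 0.49 ± 0.22, the alcohol dehydrogenase Adh1c by 0.45 ± 0.21 and Mgst2 by 0.22 ± 0.10. These 3 were picked out after their values were seen. Among antioxidant enzymes 13 of 19 lay higher, 3 with one sign upward and none downward. The median was 0.05, and -0.01 without the 10% CR pool of 1 week. The lowest difference of this list, that of Gpx1, went the other way (-0.28 ± 0.13). Gpx1 was higher at 20% CR in only 1 chip pair.

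The adipocyte list went the other way. Of its 19 tested genes 12 lay lower at 20% CR, with a median of -0.05, and 7 had one sign downward (36.8%), Nnat among them, against 2 upward. Lep, which encodes leptin, gave 167, 208.7, 501.9 and 474.5 at 20% CR, against 228.6, 317.5, 693.1 and 614.9 at 10% CR. The difference was -0.47 ± 0.20, and the 20% CR chip was the lower one in all 4 chip pairs. Lep was picked out after its values were seen. Sncg, γ-synuclein, abundant in adipocytes, gave 1858.1, 2762.1, 4654.2 and 4328.7 at 20% CR, against 2890.3, 3549.6, 5078.5 and 5103.4 at 10% CR (-0.34 ± 0.12). Mest, an imprinted gene of the hydrolase family known for marking fat expansion, gave 496, 703.2, 532.6 and 389.4 at 20% CR, against 662.7, 1124.7, 627.3 and 515.8 at 10% CR (-0.43 ± 0.18). The adipocyte factor Cebpa (-0.22 ± 0.13) also had one sign downward, and apelin (Apln, -0.37 ± 0.24) was lower in 3 of 4 chip pairs and equal in the other. Fabp4 differed by 0.01, the adipsin gene Cfd by 0.05 and lipoprotein lipase (Lpl) by 0.07. The glucose transporter Slc2a4 and Nampt had one sign upward (0.12 and 0.17).

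The lists of fat breakdown and oxidation had small medians. Fatty acid β-oxidation was split evenly, 11 of 22 tested genes higher and a median of 0.00, although 4 genes had one sign upward and 0 downward. Its largest difference was that of Ehhadh, the peroxisomal bifunctional enzyme, at 88.9, 147.2, 97.2 and 109.1 at 20% CR, against 73.8, 95.3, 85.8 and 76.5 at 10% CR (0.40 ± 0.16). The mitochondrial enzyme Acadvl of the same list differed by 0.12 ± 0.10, and its sign turned without the first chip of 10% CR or the second chip of 20% CR at 1 week. Of the 39 genes of the respiratory chain and ATP synthase 30 lay higher, with a median of 0.06 that came from 1 week (0.15, against -0.03 at 1 month) and was -0.07 without the 10% CR pool of 1 week. Of these 39 genes 4 had one sign upward and 1 downward. In the lipolysis list 7 of 13 lay higher, with 0 genes of one sign upward and 2 downward. Mgll, monoglyceride lipase, the last enzyme of triglyceride breakdown, was lower at 20% CR in every chip pair, at 831.3, 1170, 1218.6 and 988.3 at 20% CR, against 1033.9, 1369.3, 1319.9 and 1209.3 at 10% CR (-0.24 ± 0.09). Small differences of one sign in all 4 chip pairs also occurred in Plpp1 (-0.20 ± 0.11) and Lpin1 (0.16 ± 0.11) of triglyceride synthesis and in Pdha1 (0.16 ± 0.09) of pyruvate oxidation. The same held for Hibadh (0.13 ± 0.09) and Oxct1 (-0.17 ± 0.11) of branched-chain amino acid and ketone breakdown. The sign of Oxct1 turned without the first chip of 20% CR or the second chip of 10% CR at 1 week. Msmo1 of cholesterol synthesis, a list with 10 of 16 genes lower, differed by -0.35 ± 0.21.

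In insulin and IGF signalling 9 of 18 genes lay higher, and apart from Grb14 only Igf2 (0.26 ± 0.18) had one sign in all 4 chip pairs. In the clock list of repressors and output genes 6 of 11 lay higher and Nr1d1 was the only one of one sign. Its paralogue Nr1d2 differed by -0.02 and Dbp by -0.03. The glucocorticoid and fasting list had 15 of 21 genes higher (median 0.08). In it Glul, glutamine synthetase, gave 1955.3, 2737.3, 2849.6 and 2714.5 at 20% CR, against 1654, 2066.4, 2772.3 and 2264 at 10% CR (0.24 ± 0.10) and the kinase Sgk1 differed by 0.24 ± 0.12. Sgk1 was near 0 without the first chip of 10% CR at 1 week (-0.00326). Xbp1, a transcription factor of the secretory pathway, had one of the smallest SEs of all named genes, at 892.1, 1327, 1185.5 and 1277.8 at 20% CR, against 764.7, 1111.1, 953.4 and 969.5 at 10% CR, a difference of 0.30 ± 0.09.

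Of 14 immediate early genes 10 lay lower, with a median of -0.14 that came from 1 week (-0.26, against 0.03 at 1 month). In this list 4 genes were of one sign downward. Junb (-0.37 ± 0.26), Egr1 (-0.28 ± 0.21) and Socs3 (-0.38 ± 0.29) were among those 4, picked out after their values were seen, while Klf2, a flow-responsive factor of endothelium, was of one sign upward (0.28 ± 0.12). Socs3 was dim, with a mean signal of 23.3. Of the 4 genes of the list that lay higher, Myc had the largest difference (0.49 ± 0.24, higher in 3 of 4 chip pairs). The interferon list had 14 of 18 higher (median 0.07, and -0.04 without the 20% CR pool of 1 week), with Oas1a at 0.35 ± 0.17 and Irf7 at 0.19 ± 0.16. In collagen and matrix 26 of 38 lay lower (median -0.04), although its genes of largest t, Postn (0.32 ± 0.13) and P4ha1 (0.32 ± 0.12), lay higher. One sign in all 4 pairs was also seen for the small heat shock gene Cryab (-0.48 ± 0.22), Tubb6 (0.33 ± 0.20), Rps3 (0.23 ± 0.12), Pcna (0.18 ± 0.15, and -0.0103 without the 20% CR pool of 1 week), the complement receptor C5ar1 (-0.28 ± 0.15), Myh1 (-0.15 ± 0.10) and the pericyte proteoglycan Cspg4 (-0.40 ± 0.21). Of the genes that the study itself named, 15 of 24 lay higher, 5 with one sign upward, among them Star, the mitochondrial cholesterol carrier (0.47 ± 0.23), which was picked out after its values were seen. That list was chosen on data that include these samples and is no independent evidence.

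**Figure D3:**
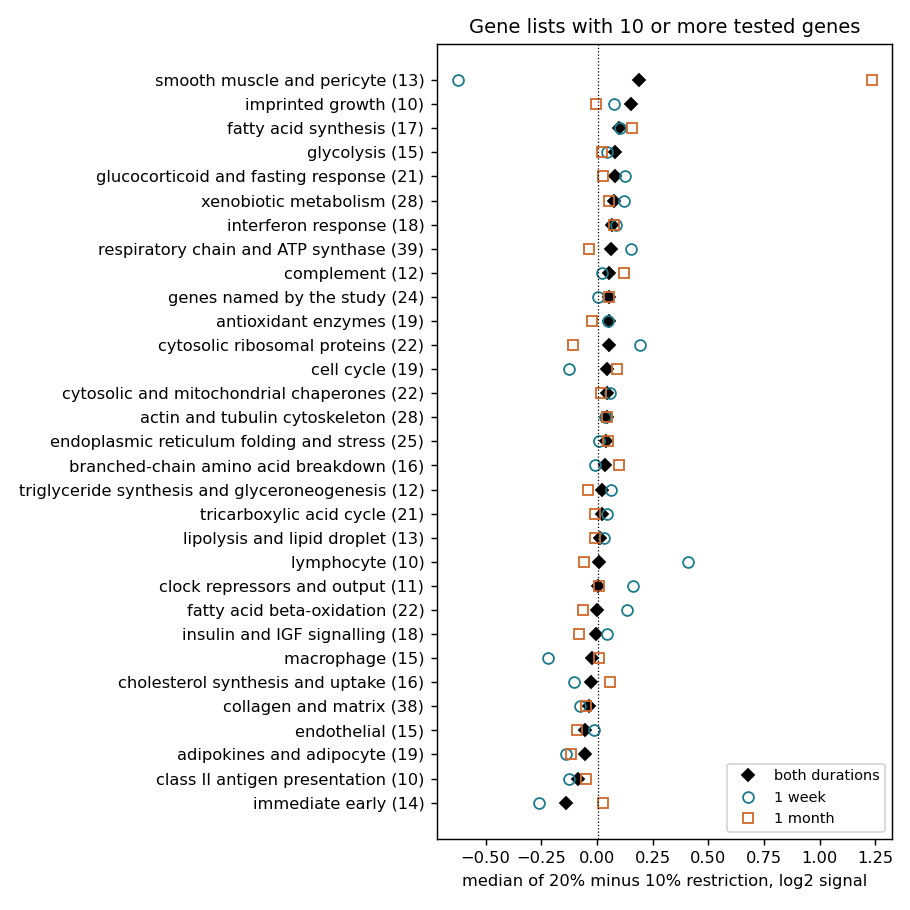
Median of the 20% minus 10% CR difference (log2 signal) over the tested genes of each list with 10 or more of them, the number in brackets, for both durations (diamonds), 1 week (circles) and 1 month (squares); the dotted line is the median of all tested genes. Most medians for both durations lie within 0.10 of 0, and the smooth muscle and pericyte list has the widest gap between 1 week (-0.63) and 1 month (1.23).

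The 2 durations agreed little. Across the 9520 probe sets the difference at 1 week and that at 1 month had a Pearson r of -0.193, given as a description, and one sign in 43.0%. The pools at 1 week and 1 month are from different animals, but the probe sets are not independent of each other. At 1 week, with 1 pool a side and so no test, 133 probe sets were at least 1.5-fold higher (1.4%) and 343 lower (3.6%) at 20% CR with one sign in both chip pairs. At 1 month 279 were higher (2.93%) and 103 lower (1.08%). These splits depend on the scale. With each chip centred on its median they were 283 higher and 172 lower at 1 week and 181 and 182 at 1 month. After quantile normalization they were 235 and 190 at 1 week and 180 and 147 at 1 month. Centring moved the median difference of all probe sets to 0.11 at 1 week, against -0.02 as deposited, and to -0.08 at 1 month, against 0.01. Only 4 probe sets met the 1.5-fold rule upward at both durations (0.042%) and 11 downward (0.116%), while 51 were lower at 1 week and higher at 1 month (0.536%) and 7 the reverse (0.0735%). Centring made these 27 and 20, and quantile normalization 31 and 18.

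Among the genes with the largest opposite differences were those of smooth muscle contraction. Actg2, the γ-actin of visceral smooth muscle, gave 68, 96.5, 910.7 and 789.6 at 20% CR, against 351.1, 487.2, 199.8 and 181.5 at 10% CR. At 1 week the 20% CR pool was lower by 2.35 on the log2 scale, and at 1 month it was higher by 2.15, so the mean difference over both durations describes neither. Cnn1, calponin, which binds actin in smooth muscle, gave 25.5, 27.5, 184.9 and 193.9 at 20% CR, against 66.1, 107.8, 39.1 and 32.6 at 10% CR, with differences of -1.67 and 2.41. Pcp4, a calmodulin-binding peptide, gave 1.4, 9.3, 202.5 and 174.1 at 20% CR, against 46.9, 35.7, 32.7 and 47.3 at 10% CR, with signals at 1 week and 20% CR under the lowest average tested. The neuropeptide galanin (Gal) gave 19.7, 26.1, 160.2 and 164.8 at 20% CR, against 71.3, 62.8, 62.9 and 41.2 at 10% CR. The single gene of the opposite order with a mean signal of at least 50 was the small GTPase Rhou, at 66.7, 116.6, 60.3 and 49.8 at 20% CR, against 44.5, 74.5, 78.3 and 87.3 at 10% CR.

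The smooth muscle and pericyte list had 13 tested genes, with a median over both durations of 0.19 that lay between -0.38 and 0.84 when 1 of the 4 pools was left out. At 1 week 12 of them lay lower at 20% CR, against 51.1% of all tested genes, and at 1 month 11 lay higher, against 50.7%; 10 did both, and 6 did so by at least 1.5-fold each time, where 38 of all 7113 tested genes did. The contractile members gave the widest gaps. Mylk, myosin light chain kinase, gave 214.9, 317.4, 875.9 and 790.8 at 20% CR, against 389.4, 578.6, 351.5 and 323.6 at 10% CR. Des, the intermediate filament desmin, gave 61.7, 93.7, 233.5 and 242 at 20% CR, against 111.2, 169.5, 96 and 85.5 at 10% CR. Tagln, transgelin, gave 174.5, 286.8, 550.9 and 526.6 at 20% CR, against 260, 458.5, 202.8 and 198.9 at 10% CR. In each of them the 20% CR chips lay below their 10% CR partners at 1 week and above them at 1 month. Myh11 (-0.56 and 1.34), Acta2 (-0.63 and 1.01), Lmod1 (-0.22 and 1.23) and Smtn (-0.35 and 0.56) did likewise as means of the 2 chips, although Smtn at 1 week rested on the first chips and was 0.0167 without them. So did 3 contractile genes outside the list, picked out after their values were seen, Myl9 (-0.60 and 1.41), Tpm2 (-0.73 and 1.36) and Synm (-1.29 and 1.32). The genes shared with pericytes were less even. Pdgfrb differed by 0.06 at 1 week and 0.31 at 1 month, Rgs5 by -0.18 and 0.35, Cspg4 by -0.65 and -0.16 and Notch3 by -0.31 and -0.04.

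The mean log2 signal of the 13 genes was 6.36 at 1 week and 7.34 at 1 month in the 20% CR pools, against 7.06 and 6.31 in the 10% CR pools. The other pools spanned nearly the same range: 6.82 and 6.54 in controls, 6.50 and 7.21 at 5% CR and 6.52 and 6.70 at 30% CR. At 1 month the 5% and 20% CR pools were both high and the levels between and around them low, so the order of the pools was not that of restriction. Endothelial markers (16 genes) lay at 7.17 at 1 week and 6.89 at 1 month at 20% CR, against 7.20 and 6.89 at 10% CR, and mesothelial markers (7 genes) lay at 7.28 and 6.87 at 20% CR, against 7.03 and 7.02 at 10% CR. How much smooth muscle each pool held was not measured, and its part in the differences at a single duration was not tested.

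**Figure D4:**
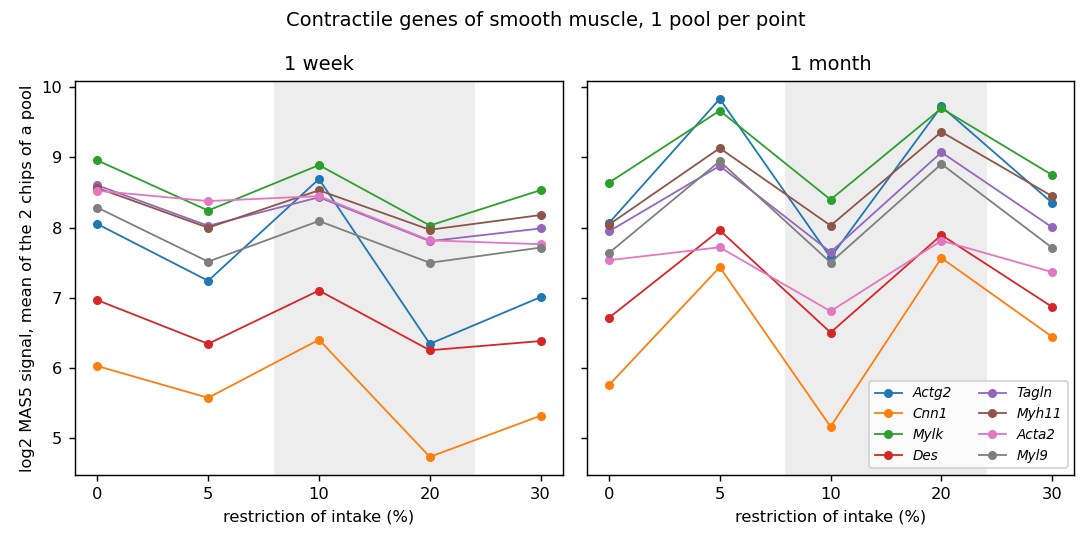
Log2 MAS5 signal (mean of the 2 chips of a pool) of 8 contractile genes at 0, 5, 10, 20 and 30% restriction, at 1 week (left) and 1 month (right), 1 pool per point, with the 10% and 20% levels shaded. From the 20% CR side the genes are low at 1 week (Actg2 at 6.34, against 8.69 at 10% CR) and high at 1 month (9.73, against 7.57).

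**Figure D5:**
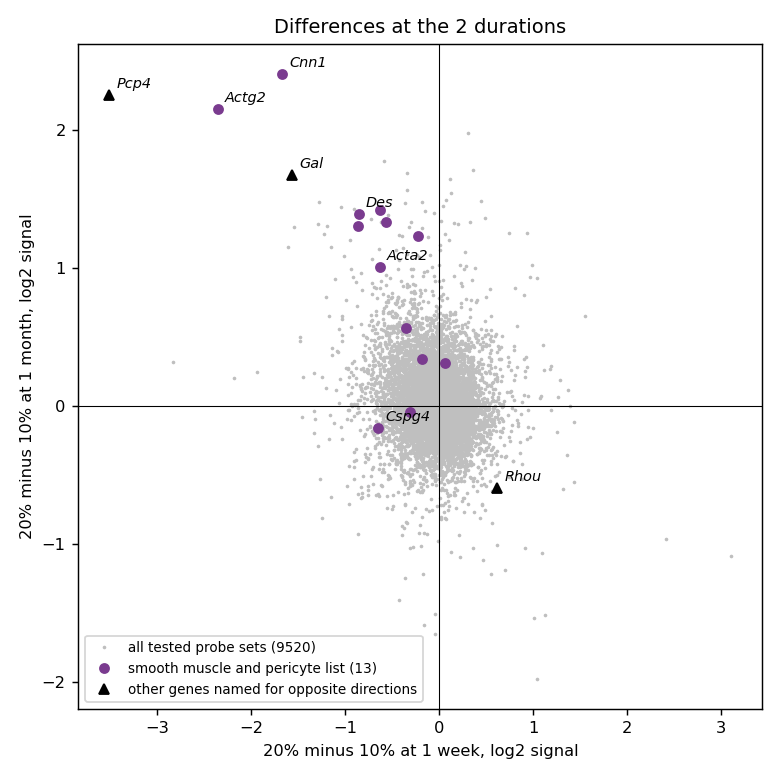
Difference between 20% and 10% CR (log2 MAS5 signal) at 1 week on the horizontal axis and at 1 month on the vertical axis for the 9520 tested probe sets, with the 13 genes of the smooth muscle and pericyte list and the other genes named for opposite directions marked. The contractile genes lie in the upper left, lower at 1 week and higher at 1 month, with Cnn1 at -1.67 and 2.41.

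Averaged over both durations, lymphocyte markers differed little between the 20% and 10% CR pools. At 1 week the mean log2 signal of the 14 markers was higher at 20% CR (5.47, against 5.13). Single genes did not all go the same way. Of the 10 tested markers 5 lay higher and 5 lower, with medians of 0.41 at 1 week and -0.06 at 1 month. Lck and Cd3g, signalling components of T cells, differed by 0.73 and 0.91 at 1 week and by 0.36 and 0.25 at 1 month, and Cd3d by 1.04 and -1.97. At 1 month 9 of the 14 markers in the 20% CR pool and 8 in the 10% CR pool had a signal under 16, so single differences there rest on dim probe sets. With the mean lymphocyte signal of each pool as a covariate, limma again called 0 of the 9520 probe sets, with 244 at an unadjusted p under 0.05.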

How the data were processed

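The authors scanned the arrays and computed MAS5 signals, and the deposited intensity values on a linear scale were used as given, with their scaling per chip set and no further normalization; no call of presence entered the filter. MAS5 is named in the submitters' processing notes with no version. Of 15923 probe sets, 57 controls were left out, and 12783 of the rest had 1 gene symbol, 312 several and 2771 none. Signals were raised to a floor of 1, taken to log2 and averaged over the 2 chips of a pool; probe sets whose mean signal over 20 chips reached the 40th percentile (22.8) were tested. The file gives intensities and no counts, so the number of pools sets the precision of the fit, which is lower for dim probe sets. limma 3.58.1 in R 4.3.3 fitted level (5) and duration to all 10 pools, 4 residual degrees of freedom, with a mean-variance trend, and p-values were adjusted over all 9520 probe sets by Benjamini-Hochberg; the fit was tested on simulated data. Differences within a duration have 1 pool a side and no test. For genes with several probe sets the brightest tested one was used in the lists. Besides the 28 genes, at most 2 genes of a list were named by their moderated t. Apart from Myc and Gpx1, they are given here only where all 4 chip pairs had one sign. For opposite durations up to 4 genes per direction with a mean signal of at least 50 were named. The genes described as picked out, list members given by a mean difference without an SE, and the 30% minus 5% comparison, were chosen after their values were seen. The genes, lists and tests were chosen with earlier results of these data known. The alternatives were other scalings, floors, filters and designs, a replicate block and leaving out chips and pools.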

Additional observations from a re-analysis of the deposited data

Results flagged for a closer look

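The genes singled out for opposite differences between 20% and 10% CR at the 2 durations were Actg2 (-2.35 at 1 week and 2.15 at 1 month, log2), Cnn1 (-1.67 and 2.41), Pcp4 (-3.50 and 2.26), galanin (Gal, -1.56 and 1.67) and, in the other order, Rhou (0.62 and -0.59). Both chips of each pool went the same way in each of them. The difference between the durations was not tested, because 1 pool a side leaves no residual degrees of freedom. Pcp4 had signals of 1.4 and 9.3 in the 20% CR pool at 1 week, near the floor, so the size of its difference there is uncertain. With 2 chips per pool and 2 pools per level, no group was large enough for a check of single samples that stand apart.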

How the results depend on the processing

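Every fit tried called 0 probe sets for 20% against 10% CR at an adjusted p of 0.05 (limma). With the chip number as a replicate block there were 262 at an unadjusted p under 0.05 and a lowest adjusted p of 0.316; chips of the same number correlated in their deviations at 0.016 to 0.177 at 1 week and at -0.087 to 0.225 at 1 month, over 0.1 in 5 of 10 pairs of pools at each duration. Since not every pair was over 0.1, the numbers were not taken to pair the samples in the main fit. The chip pairs of the sign rule match chips by number to compare them on one scale. At 1 month both chip sets lay on nearly the same scale, so that match was a convention. Whether the numbers mark a shared step of the assay is not given in the sources used here. With the 4 pools of these levels alone there were 274 at an unadjusted p under 0.05 and a lowest adjusted p of 0.149.

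The counts of probe sets past 1.5-fold depended on the filter. With no filter 536 had one sign in the 4 chip pairs, 2709 passed at 1 week, 2441 at 1 month and 537 in opposite directions, and with a 60th percentile filter 19, 136, 96 and 15. With 1 chip number left out, which drops the demand that the 2 chips share a sign, they were 174 to 400, 721 to 1116, 859 to 913 and 111 to 114. Leaving out a chip or a pool turned the sign of a few small differences: Acadvl lay between -0.11 and 0.34, Sgk1 between -0.00326 and 0.48, Oxct1 between -0.35 and 0.0162, Acaca between -0.0364 and 0.26, Pcna between -0.0103 and 0.37, and Smtn at 1 week between -0.72 and 0.0167. Leaving out 1 chip of 1 week moves the median of all differences by up to 0.13 by construction, since the chip sets of 1 week differ in scale. Of the other gene differences recomputed in this way, Myc and Gpx1 not included, none changed sign. Art1 and the list members given without an SE were not recomputed.

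With 1 pool of 5 rats per level and duration, the groups cannot be told apart from the pools that represent them. Differences under about 2.26 SE are not detectable even before adjustment, and dim probe sets have the widest intervals.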
